A study of Mus musculus with 10 samples.

Results

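The genes described here code for the proteasome and its helpers, measured in the hippocampus of Dp1Yey mice, a model of Down syndrome. They were chosen by symbol: every gene whose name begins with Psma to Psmg and a number and that had a probe set annotated to it alone, without the immunoproteasome subunits Psmb8, Psmb9 and Psmb10. The rule gave 47 of the 19938 genes measured. Of these, 45 were subunits, assembly factors, activators or an inhibitor of the proteasome, and Psmc3ip and Psme3ip1 only carry the name of a subunit they bind. Only 1 of the 47, the assembly factor Psmg1, lies in the chromosome segment duplicated in these mice. A log2 value of 5.44, below which most olfactory receptor genes lay, served as a background level. The mean of 46 of the 47 was above it, and only Psma8, the testis form of an outer ring subunit, was below.

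The proteasome degrades proteins tagged with ubiquitin. Its 20S core is a barrel in which outer rings of alpha subunits gate the entrance and inner rings of beta subunits hold the catalytic sites, and a 19S cap adds a base with ATPases that unfold substrates and a lid that removes ubiquitin. The rings do not assemble unaided: Psmg1 and Psmg2 form a dimer that helps build the alpha ring, Psmg3 and Psmg4 form another, and Psmd5, Psmd9 and Psmd10 assist the base. In neurons, proteasomes take part in the turnover of synaptic proteins.

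Hippocampi of 16-week-old male mice were profiled on Affymetrix Mouse Gene 1.0 ST arrays, 1 array for each of 5 Dp1Yey mice and 5 control littermates. Dp1Yey mice carry a germline duplication on mouse chromosome 16 (Mmu16), from Lipi to Zbtb21, so that genes within it are present in 3 copies in all cells, and control mice carry none. The labels give a C57BL/6N background for both groups and the study's text names another substrain, a difference not settled here. In whole tissue, fewer cells of a type and less RNA per cell cannot be told apart, and p-values set group differences against the spread between these mice.

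Some promoter sequences are shown first, because the transcription factors known to act on proteasome genes bind short motifs. Windows from 250 bases before to 50 after each annotated start were available from RefSeq (GRCm38.p6) for 39 of the 47 genes, 43 windows in all. Searched on both strands were the antioxidant response element core TGACNNNGC (ARE), the interferon response element (ISRE: TTTC, any 2 bases, TTTC), CCAAT and the GC box GGGCGG. The stretches printed run from 150 bases before to 30 after the start, on the strand of the gene, with motif letters in capitals. Psmg1 is shown as the member in 3 copies, and Psmb5 and Psmb6 as catalytic subunits with an ARE. Psme1 and Psme2 are shown as the partners of the PA28 activator. Their log2 differences between the groups of mice, 0.071 and 0.26, were not compared by a test.
Psmg1, chr16:95990931-95991110, minus strand: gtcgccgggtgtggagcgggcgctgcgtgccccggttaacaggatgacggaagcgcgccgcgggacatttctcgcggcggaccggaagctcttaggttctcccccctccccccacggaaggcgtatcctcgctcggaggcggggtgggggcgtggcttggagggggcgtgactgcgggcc
Psmb5, chr14:54617966-54618145, minus strand: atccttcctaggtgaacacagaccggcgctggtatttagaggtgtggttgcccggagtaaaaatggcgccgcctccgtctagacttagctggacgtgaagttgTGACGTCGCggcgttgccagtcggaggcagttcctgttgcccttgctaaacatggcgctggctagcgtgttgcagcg
Psmb6, chr11:70525207-70525386, plus strand: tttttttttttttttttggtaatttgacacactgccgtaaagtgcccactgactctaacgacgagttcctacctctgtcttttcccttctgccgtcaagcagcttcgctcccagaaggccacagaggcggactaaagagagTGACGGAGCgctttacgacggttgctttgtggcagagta
Psme1, chr14:55578344-55578523, plus strand: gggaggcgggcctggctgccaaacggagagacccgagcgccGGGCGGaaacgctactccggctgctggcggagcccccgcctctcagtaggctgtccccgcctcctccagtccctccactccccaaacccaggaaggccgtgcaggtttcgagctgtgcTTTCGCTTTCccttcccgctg
Psme2, chr14:55590992-55591171, minus strand: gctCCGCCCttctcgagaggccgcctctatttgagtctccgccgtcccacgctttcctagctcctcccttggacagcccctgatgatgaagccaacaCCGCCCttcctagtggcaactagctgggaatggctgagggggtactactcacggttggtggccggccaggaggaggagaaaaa

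The full Psmg1 window held none of the 4 motifs. Psme1 had an ISRE and a GC box, and this Psme2 window had 2 GC boxes, printed on their reverse strand, and no ISRE. Over the members, 13.95% of windows held an ARE, against 12.4% of all 32851 windows, and 34.9% held CCAAT, against 37.4%. A GC box was present in 55.8% of member windows against 35.7% of all, and an ISRE in 11.6% against 3.44%. The median GC content was 59.0% for members and 52.7% for all windows. The ISRE windows belonged to Psmb3, Psmd4, Psmd9, Psme1 and Psmg4, and in Psmd9 the ARE overlapped a GC box. These are matches of letters, not measured binding.

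Psmg1 was upregulated in Dp1Yey hippocampi, and no other member passed the test. Psmg1 (Entrez 56088, chr16:95979933-95990960, mm10) had log2 values of 8.64, 8.47, 8.60, 8.58 and 8.42 in Dp1Yey mice 1 to 5 and of 7.92, 7.94, 8.07, 7.90 and 8.15 in control mice 1 to 5. Every Dp1Yey mouse was above every control mouse. The mean rose from 7.995 ± 0.11 to 8.54 ± 0.093 (SD, n = 5 each), a log2 difference of 0.55 (95% CI 0.42 to 0.67), with an adjusted p of 0.000569 in limma over all genes. The exact permutation p was 0.00794, two-sided, the smallest that 5 against 5 mice can give. On the linear scale this was 1.46-fold (95% CI 1.34 to 1.59). This interval, from the fit without a covariate, holds the 1.5-fold of 3 copies against a normal pair. With array spread as a covariate, as described below, Psmg1 was 1.34-fold (95% CI 1.24 to 1.46), an interval wholly below 1.5-fold. Array spread itself differed between the groups, with mean interquartile ranges of 3.51 in Dp1Yey and 3.46 in control mice. That fit may therefore take out part of a genotype difference, and array spread and genotype cannot be told apart. With median centring Psmg1 was 1.51-fold.

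The size of the Psmg1 difference was set beside its surroundings. Of the 143 measured genes of the interval, Psmg1 had the rank 12 by log2 difference, and the median over the 97 interval genes above background was 0.32. The nearest measured genes were called on both sides: the chromatin reader Brwd1, whose annotated start coordinate lies 12.2 kb from that of Psmg1, rose by 0.39 (log2, adjusted p = 0.000569), and Get1, a factor for membrane insertion of tail-anchored proteins, rose by 0.46 (9.93e-05). On the other side the transcription factor Ets2 rose by 0.47 (9.93e-05). The endothelial transcription factor Erg rose by 0.24 (0.0417), a call lost when any array but Dp1Yey replicate 2 was left out (adjusted p 0.0518 to 0.103). The nucleosome-binding gene Hmgn1 had a difference of 0.24 (adjusted p = 0.122) and the potassium channel gene Kcnj15 of -0.13 (0.394), and neither passed. Kcnj15 was near background, with a mean of 5.55 over all mice and 1 mouse of each group below 5.44. The 6 other genes, all in 3 copies, had differences from 0.24 to 0.55.

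**Figure D1:**
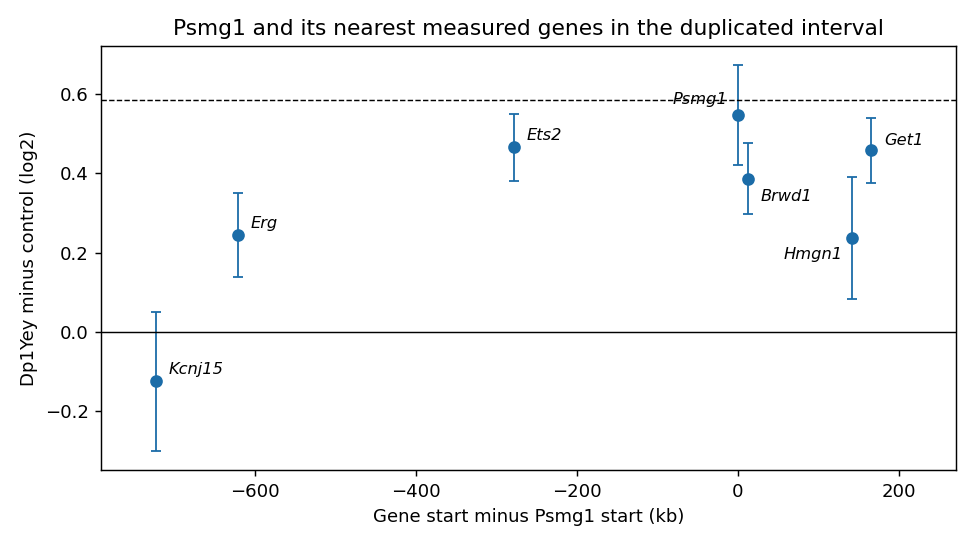
Log2 difference between Dp1Yey and control (y axis, points, with 95% confidence intervals as bars) for Psmg1 and the nearest measured genes of the duplicated interval, against the distance of their start coordinates from that of Psmg1 in kb (x axis). The dashed line is 1.5-fold (0.585 on the log2 scale), which lies inside the interval of Psmg1 in the fit without a covariate. Kcnj15 is the only one of the 7 genes below 0.

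Psmg2, the dimer partner of Psmg1, lies outside the duplicated interval. Its log2 values were 8.55, 8.43, 8.43, 8.42 and 8.43 in Dp1Yey mice and 8.33, 7.91, 8.39, 8.38 and 8.39 in control mice. The groups did not overlap, but 4 of the control mice lay close below the Dp1Yey mice and control replicate 2 lay apart from them. The log2 difference was 0.17 (95% CI -0.01 to 0.35, adjusted p = 0.275). Without control replicates 1 and 2 it was 0.063, and 0.0064 once the spread of each array, its interquartile range, entered the fit as a covariate.

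Whether the partners differed in response was tested within each array. Psmg1 minus Psmg2 was 0.094, 0.037, 0.173, 0.161 and -0.010 on the log2 scale in Dp1Yey mice and -0.412, 0.034, -0.319, -0.483 and -0.248 in control mice. Control replicate 2, with its low Psmg2 value, was the only control mouse among the Dp1Yey values. The difference between groups was 0.38 (0.091 ± 0.079 against -0.29 ± 0.20, SD, n = 5 each, exact permutation p = 0.0159, two-sided). Without control replicate 2 it was 0.46. The groups then did not overlap, so the exact p could only take its smallest value, 0.00794, and adds no support. With all mice kept, the mean balance of the 2 transcripts differed between genotypes, in these units, although the values of single mice overlapped through control replicate 2. The values of different probe sets do not give their ratio in molecules.

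None of the other assembly factors passed the test. Psmg4 had a difference of 0.13 (adjusted p = 0.281), and 4 of its control values, from 7.15 to 7.35, lay around or below the Dp1Yey values of 7.28 to 7.33, with control replicate 2 at 6.92. Psmg3, its partner, had a difference of -0.084 (0.478), with values of 5.67 to 5.94 in Dp1Yey and 5.73 to 6.00 in control mice. Of the chaperones of the base, Psmd10, also called gankyrin, had a difference of 0.17 (95% CI 0.03 to 0.31, adjusted p = 0.189), with values of 9.68, 9.52, 9.49, 9.62 and 9.35 in Dp1Yey and 9.30, 9.28, 9.49, 9.31 and 9.45 in control mice. Psmd10 overlapped between groups through Dp1Yey replicate 5. Psmd9 (0.022) and Psmd5 (-0.0047) had differences near 0. Over the 6 assembly factors other than Psmg1, 4 differences were above 0 and the median was 0.077.

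**Figure D2:**
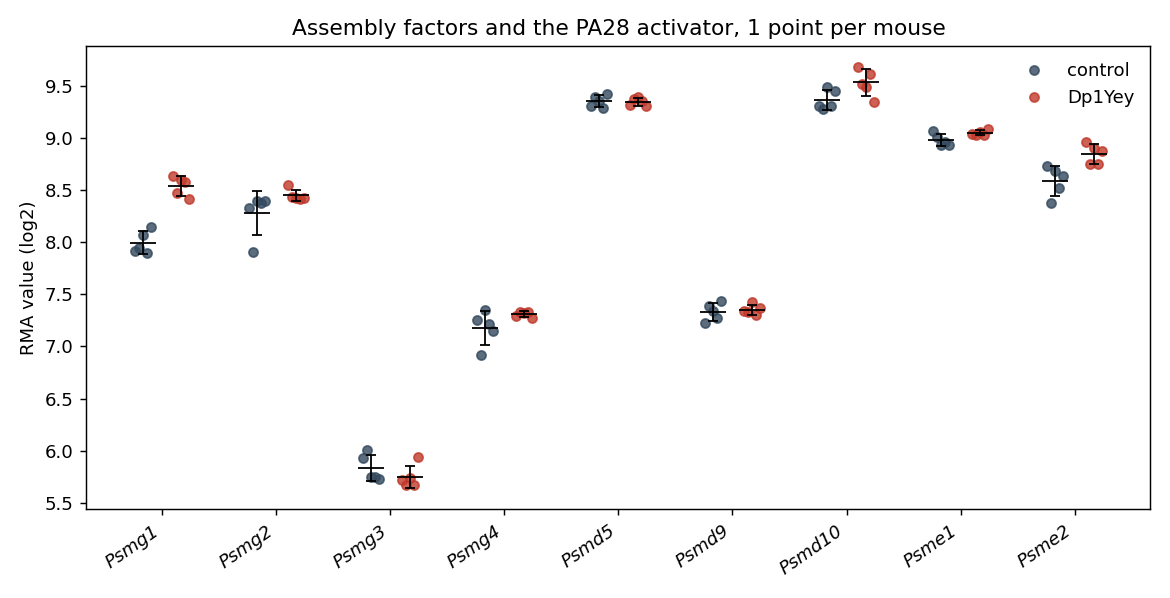
Log2 values (y axis) of the assembly factors and of both PA28 subunits (x axis), 1 point per mouse, with control mice in dark blue and Dp1Yey mice in red, and bars for mean and SD (n = 5 each). Psmg1 is the gene whose groups lie far apart (8.54 against 7.995), and control replicate 2 is the low point of Psmg2 (7.91), Psmg4 (6.92) and Psme2 (8.38).

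Over all 47 members, 1 was called higher in Dp1Yey (adjusted p under 0.05) and 0 were called lower, while 0.687% of all genes were called higher and 0.11% lower. With p under 0.05 before adjustment (the unadjusted p), 18 of the 47 were higher and 0 lower, against 8.75% higher and 10.8% lower over all genes. Outside the interval this count was 17, and it was 10, 11, 11 and 8 without Dp1Yey replicate 1, 2, 3 and 4 in turn, and 10 with 1 lower after a new quantile normalisation. The groups did not overlap in 5 members with Dp1Yey higher (Psmg1, Psmg2, Psme2, Psmb2 and Psma8) and in 0 with Dp1Yey lower, against 2.4% and 2.46% of all genes. By the rank statistic of fold changes, 2 members were higher (Psmg1 and Psme2) and 0 lower, against 2.46% and 0.993% of all genes.

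Most proteasome genes had small positive differences that did not pass the test. Of the 46 members outside the interval, 41 had a difference above 0, from -0.084 to 0.26 with a median of 0.098, and the lowest adjusted p among them was 0.0943. The median over all genes was -0.015, and 42.1% of all genes were above 0. The 4985 genes with the highest values had a median of 0.014, with 57.2% above 0 and 13.9% higher at an unadjusted p under 0.05. For each of the 46 members the 95% confidence interval lay wholly below 1.5-fold, and the highest upper bound was 0.41 on the log2 scale, that of Psme2.

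**Figure D3:**
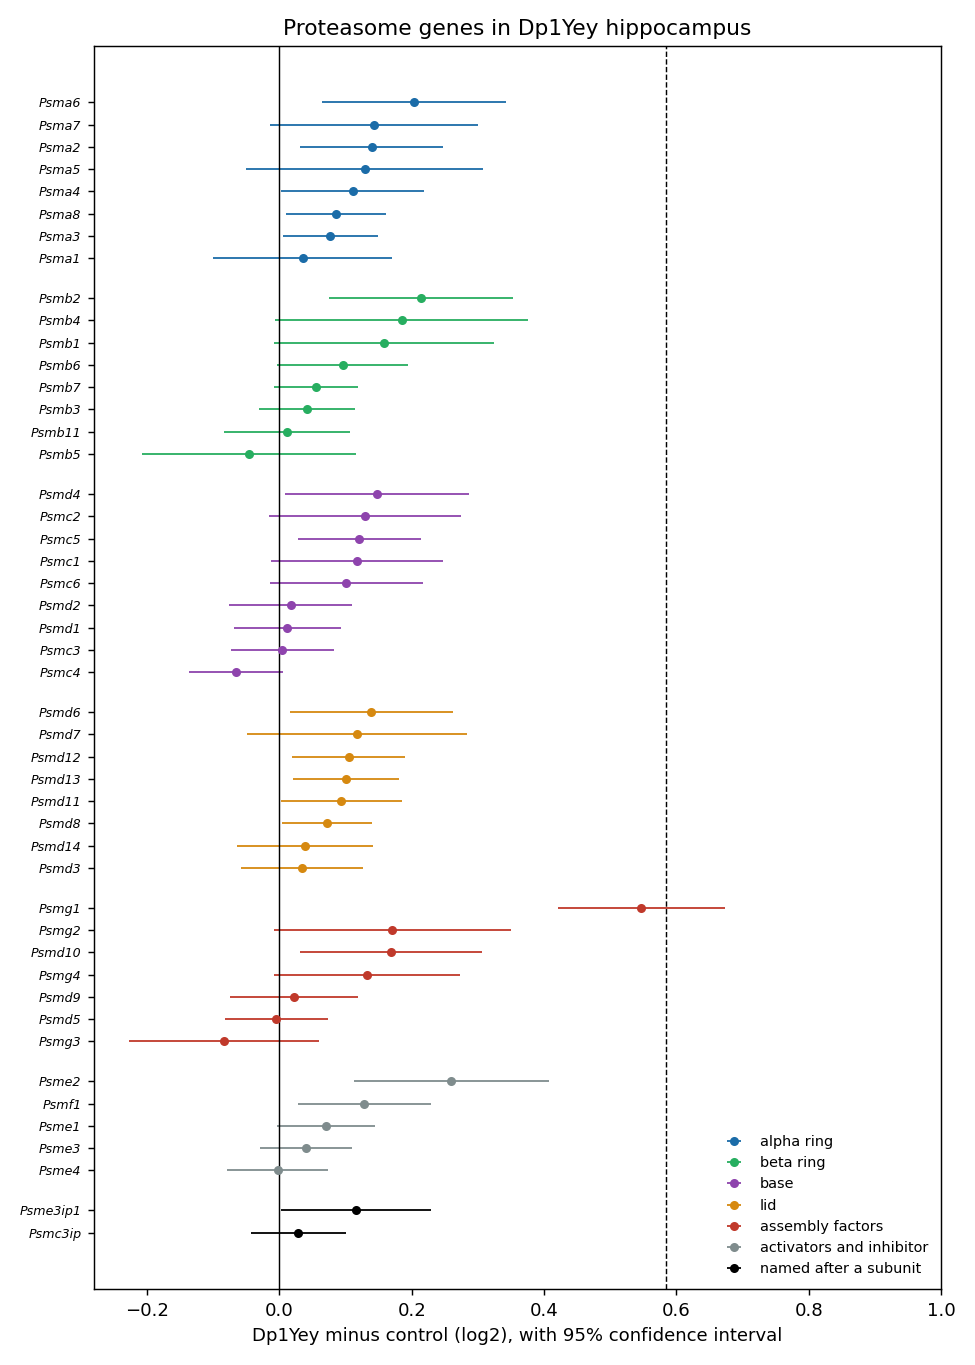
Log2 difference between Dp1Yey and control (x axis, points, with 95% confidence intervals as bars) for the 47 genes, grouped by role (colours). Psmg1 at 0.55 stands to the right of all others, whose differences run from -0.084 to 0.26, and the dashed line marks 1.5-fold (0.585).

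The alpha ring, which Psmg1 and Psmg2 help to assemble, had 8 of 8 differences above 0, 5 of them at an unadjusted p under 0.05, and a median of 0.12. For this class and those below, the share higher at that threshold was 8.75% of all genes and 13.9% of the genes with the highest values. That count of 5 was 2 without control replicates 1 and 2 (Psma6 and Psma8) and 1 with the array spread as a covariate (Psma8). Psma8, which is below background, is included in the 8 and in the 5. Psma6 had values of 11.22, 11.03, 11.17, 11.12 and 11.11 in Dp1Yey mice and 10.85, 10.71, 11.02, 10.98 and 11.06 in control mice. The groups overlapped through control replicate 5 and Dp1Yey replicate 2, and the difference was 0.20 (95% CI 0.06 to 0.34, adjusted p = 0.136). Psma2 had a difference of 0.14 (adjusted p = 0.171), with values of 9.58 to 9.69 in Dp1Yey and 9.36 to 9.61 in control mice. Psma3 had a difference of 0.077 (0.229) and values of 11.10 to 11.18 against 11.01 to 11.11. The testis gene Psma8 was at 5.30 to 5.34 in Dp1Yey and 5.14 to 5.29 in control mice, all below the background level, so that its difference of 0.086 (0.209) is not read as expression.

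The beta ring had 7 of 8 differences above 0, 1 of them at an unadjusted p under 0.05, and a median of 0.075. Psmb2, a subunit without catalytic activity, had values of 11.07, 11.00, 11.02, 11.01 and 10.98 in Dp1Yey mice and 10.93, 10.54, 10.91, 10.81 and 10.82 in control mice. All Dp1Yey mice were above all control mice, the nearest by less than 0.1, and the difference was 0.21 (95% CI 0.08 to 0.35, adjusted p = 0.123). Psmb4, also without catalytic activity, had a difference of 0.18 (0.271), with 4 control mice between 10.71 and 10.87 and control replicate 2 at 10.34, against 10.82 to 11.01 in Dp1Yey mice. The 3 catalytic subunits had no member past an unadjusted p under 0.05 and a median of 0.055. Psmb6, with caspase-like activity, had a difference of 0.095 (adjusted p = 0.272), Psmb7, with trypsin-like activity, of 0.055 (0.314), and Psmb5, with chymotrypsin-like activity, of -0.045 (0.749). Psmb5 had its highest value, 12.84, in control replicate 2, against 12.47 to 12.63 in Dp1Yey mice. The thymus subunit Psmb11 lay near background, at 5.67 to 5.88 over both groups, with a difference of 0.011.

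In the 19S base, 8 of 9 differences were above 0, 2 at an unadjusted p under 0.05, and the median was 0.10. The ATPase Psmc5 had values of 9.21, 9.08, 9.23, 9.19 and 9.14 in Dp1Yey mice and 9.01, 8.94, 9.13, 9.09 and 9.06 in control mice. Control replicates 3 and 4 lay within the Dp1Yey range, and the difference was 0.12 (95% CI 0.03 to 0.21, adjusted p = 0.169). The ubiquitin receptor Psmd4 had a difference of 0.15 (0.234), with control replicate 2 at 8.36 and the other control mice at 8.58 to 8.73, against 8.72 to 8.81 in Dp1Yey mice. Psmc4, another ATPase, went the other way, with a difference of -0.065 (0.292) and values of 9.76 to 9.88 in Dp1Yey and 9.88 to 9.94 in control mice. The scaffold subunit Psmd2 had a difference of 0.017 (0.844). Over the 6 ATPases the median was 0.11.

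In the lid, 8 of 8 differences were above 0, 5 at an unadjusted p under 0.05, and the median was 0.097. That count of 5 was 1 after a new quantile normalisation, 1 without control replicates 1 and 2 and 0 with the covariate. The scaffold subunits Psmd13 (0.10, adjusted p = 0.181), Psmd12 (0.10, 0.189) and Psmd6 (0.14, 0.212) had the smallest p-values. Psmd12 had values of 9.70, 9.66, 9.72, 9.67 and 9.62 in Dp1Yey mice and 9.52, 9.61, 9.67, 9.50 and 9.54 in control mice, and its groups overlapped through control replicate 3. The deubiquitinase Psmd14, which removes ubiquitin chains from substrates, had a difference of 0.039 (0.656) with values of 10.90 to 11.02 in Dp1Yey and 10.81 to 11.06 in control mice.

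The activators and the inhibitor had 4 of 5 differences above 0, 2 at an unadjusted p under 0.05, and a median of 0.071. Psme2, the beta subunit of PA28, an activator induced by interferon, had the largest difference among the members outside the interval. Its values were 8.97, 8.75, 8.91, 8.75 and 8.88 in Dp1Yey mice and 8.73, 8.38, 8.69, 8.52 and 8.64 in control mice. The groups did not overlap, by a margin of under 0.1 between control replicate 1 and Dp1Yey replicates 2 and 4. The difference was 0.26 (95% CI 0.11 to 0.41, adjusted p = 0.0943). Another probe set, annotated to both Psme2 and its near copy Psme2b and therefore not used for either, had a difference of 0.34 (7.60 ± 0.049 against 7.26 ± 0.18, SD, n = 5 each). Signal from such near copies may not be told apart by the probes, so the Psme2 value is uncertain to that degree.

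Psme1, the alpha subunit of PA28 encoded beside Psme2, had a difference of 0.071 (95% CI -0.00 to 0.14, adjusted p = 0.276), with values of 9.03 to 9.09 in Dp1Yey and 8.93 to 9.07 in control mice. The nuclear activator Psme3 had a difference of 0.040 (0.483). Psmf1, known as PI31 and described as an inhibitor of the core, had a difference of 0.13 (95% CI 0.03 to 0.23, adjusted p = 0.175), with Dp1Yey values of 9.37 to 9.52 and control values of 9.34 to 9.40 apart from replicate 2 at 9.18. Of the 2 genes that only share a subunit's name, Psme3ip1 had a difference of 0.12 (0.245) and Psmc3ip of 0.028 (0.641).

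Values were also summarised mouse by mouse. For each mouse the deviation of the 46 members from their control means was taken, and its median was 0.12, 0.063, 0.11, 0.093 and 0.063 in Dp1Yey mice 1 to 5 and -0.0054, -0.093, 0.054, 0.0046 and 0.040 in control mice 1 to 5. Dp1Yey mice lay above all control mice, but the step from control replicate 3 to Dp1Yey replicates 2 and 5 was smaller than the spread among control mice. Of the 46 members, 42, 40, 41, 38 and 37 were above their control mean in Dp1Yey mice 1 to 5 and 22, 11, 38, 25 and 34 in control mice 1 to 5, so that the groups overlapped through control replicate 3. Control replicate 2 was the lowest of all 10 arrays in 24 of the 46 members and the highest in 4, and Dp1Yey replicate 1 was the highest in 17. The median SD over the members was 0.050 in Dp1Yey and 0.089 in control mice, or 0.062 in control mice without replicate 2.

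A property of the arrays moved with these medians. The interquartile range of all probe sets of an array was 3.53, 3.53, 3.52, 3.53 and 3.47 in Dp1Yey mice and 3.44, 3.40, 3.49, 3.46 and 3.51 in control mice, lowest in control replicate 2. With this range as a covariate the median over the 46 members was 0.021 in place of 0.098, with 34 above 0 and 3 at an unadjusted p under 0.05, against 17 without it. Without control replicates 1 and 2 it was 0.047, with 39 above 0 and 10 at an unadjusted p under 0.05. Median centring of the arrays gave 0.14, with 44 above 0 and 29 at an unadjusted p under 0.05. The median of all genes then moved from -0.015 to 0.032. Shares of all genes at this threshold are not given for these fits. On average the range was higher in Dp1Yey than in control mice, so its part cannot be told apart from that of genotype. The part of array spread and of control replicate 2 in the small differences of the proteasome genes was not tested. Psmg1 remained called in each of these fits, at 0.43 (adjusted p = 0.00659) with the covariate, 0.50 (0.00564) without control replicates 1 and 2 and 0.59 (0.000812) with median centring.

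**Figure D4:**
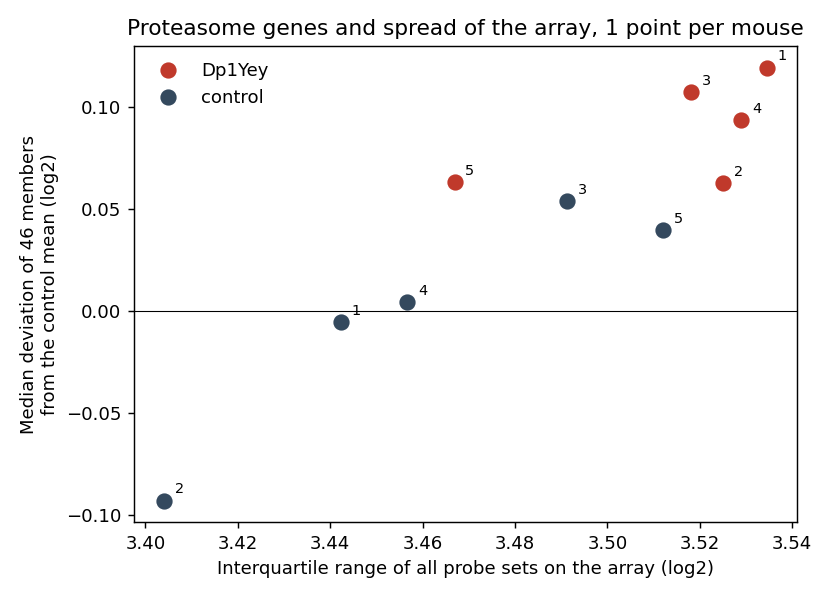
Median deviation of the 46 proteasome genes outside the interval from their control means (y axis, log2) against the interquartile range of the array (x axis, log2), 1 point per mouse with its replicate number, control in dark blue and Dp1Yey in red. Control replicate 2 is lowest on both axes (-0.093 and 3.40), and Dp1Yey replicate 1 is highest on both (0.12 and 3.53).

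By class, the covariate left medians of 0.034 in the alpha ring, 0.028 in the beta ring, 0.0018 in the base, 0.026 in the lid, 0.016 in the assembly factors without Psmg1 and 0.092 in the activators and inhibitor. Only the last of these was as high as before. Psme2 had a difference of 0.19 with the covariate (adjusted p = 0.681) and of 0.24 without control replicates 1 and 2 (0.124), Psmb2 of 0.11 and 0.17, and Psma6 of 0.070 and 0.11. Psme1, at 0.071 before, had a difference of 0.12 with the covariate (0.474) and of 0.11 without these control replicates (0.178).

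Further genes of the pathway gave no call in limma. The rank statistic called 2 of them higher and 0 lower, against 2.46% and 0.993% of all genes. These were Bach1, itself in 3 copies, and Nfe2l2. The lists covered other proteasome genes, shuttle and unfolding factors, ubiquitin and its activation, and control of proteasome gene transcription. Of their 27 measured genes, 20 had a difference above 0, 0 were called in limma, and the median was 0.018. An unadjusted p under 0.05 was reached by 5 on the higher side and 0 on the lower, against 8.75% and 10.8% of all genes. Of 10 other proteasome genes 9 were above 0. Among these, the deubiquitinase Uchl5 had a difference of 0.17 (adjusted p = 0.136), the small lid subunit Sem1 of 0.18 (0.176) and the proteasome-bound thioredoxin-like gene Txnl1 of 0.088 (0.281). Of 8 shuttle and unfolding factors 5 were above 0, with Nsfl1c at 0.090 (0.252), the shuttle factor Ubqln1 at -0.046 (0.377) and Nploc4, a cofactor of the unfolding ATPase Vcp, at -0.035 (0.657). The ubiquitin-activating enzyme Uba6 was the 1 measured gene of its list, at 0.10 (0.563).

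The transcription list held 8 measured genes, 5 of them above 0, with a median of 0.012. Those below 0 were the activator gene Nfe2l1 (-0.010, adjusted p = 0.899), Keap1 (-0.068, 0.469) and Mafg (-0.058, 0.479). Bach1, a repressor that binds the ARE, is itself present in 3 copies. Its values were 7.85, 7.82, 7.83, 7.70 and 7.84 in Dp1Yey mice and 7.68, 7.67, 7.59, 7.56 and 7.54 in control mice. The groups did not overlap, with Dp1Yey replicate 4 next to the control mice, and the difference was 0.20 (95% CI 0.11 to 0.29, adjusted p = 0.0513). It lay at the threshold: the adjusted p was 0.00604 with median centring, 0.0303 without control replicates 1 and 2, and 0.0879 with the covariate.

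Nfe2l2, which codes for NRF2, an activator that binds the ARE, had values of 9.43, 9.66, 9.60, 9.41 and 9.56 in Dp1Yey mice and 9.15, 8.91, 9.31, 9.24 and 9.34 in control mice. All Dp1Yey mice were above all control mice, and control replicate 2 was lowest. The difference was 0.34 (95% CI 0.17 to 0.51, adjusted p = 0.0675), and with the covariate it was 0.21 (0.637). Mafk, a small partner of such factors, had a difference of 0.11 (0.330).

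Markers of cell types were set beside these values. All 8 neuronal markers were above background, and 5 had a difference above 0 with a median of 0.0012. Choroid plexus markers were lower in Dp1Yey mice in 6 of 6, with a median of -0.58 and 0 called in limma. An unadjusted p under 0.05 was reached by 5, against 10.8% of all genes lower. The rank statistic called 4 as lower, against 0.993% of all genes. The mean level of these markers ranged from 6.95 to 7.70 in Dp1Yey and from 7.20 to 8.76 in control mice. Ttr, the main choroid plexus transcript, was at 9.20 to 11.95 in Dp1Yey and at 10.26 to 13.16 in control mice. The choroid plexus markers Clic6 (-0.46) and Kcne2 (-0.50) lie in the duplicated interval and are themselves in 3 copies. Microglial markers were above 0 in 5 of 6 (mean level 8.36 to 8.43 in Dp1Yey and 8.22 to 8.41 in control mice), oligodendrocyte markers in 4 of 5, endothelial markers in 4 of 5, astrocyte markers in 3 of 6, dentate gyrus markers in 2 of 6 and blood genes in 1 of 2. Single markers, named after their values were seen, had larger differences than the proteasome genes outside the interval: the endothelial genes Slco1a4 (0.34, adjusted p = 0.0586, groups without overlap) and Tek (0.27, 0.114), the erythroid gene Alas2 (0.56, 0.165) and the dentate marker Lct (-0.34, 0.103). The rank statistic called these 4, Lct as lower, against 2.46% of all genes higher and 0.993% lower. Within the same lists, Flt1 (-0.053) was the endothelial marker below 0 and Slc4a1 (-0.050) the other measured blood gene. Tdo2 (0.23) and Calb1 (0.10) were the dentate markers above 0. The mean of every measured marker was above background, and their part in the results was not tested.

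Some members are uncertain because near-identical copies may exist elsewhere in the genome. Psma3 had 3 probe sets of its own, and Psma5, Psmb3, Psmc1 and Psmd2 had 2 each. For Psma3, Psma5, Psmb3 and Psmd2 the number of the probe set used fell among those of genes of another chromosome. For Psmb3 that chromosome was Mmu16, which carries the duplication, and so it was for the Psmc1 probe set not used. Whether these probe sets match sequence inside the duplicated interval was not tested. All probe sets of a gene gave differences of the same sign, from 0.059 to 0.077 for Psma3, 0.13 and 0.21 for Psma5, 0.042 and 0.051 for Psmb3, 0.12 and 0.20 for Psmc1 and 0.017 and 0.034 for Psmd2.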

How the data were processed

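RNA from whole hippocampi of 5 Dp1Yey and 5 control mice was hybridised to 1 array per mouse. The deposited values are on the log2 scale and were made with RMA (robust multi-array average), which corrects background, quantile-normalises probes and summarises each probe set, and limma, RMA and the build mm10 stand in the processing notes of the submitters. Quantile normalisation sets changes relative to the other genes of an array, so a change shared by all genes would not be seen. Not given in the sources used here is the set of arrays on which RMA was run, and no scanner file was used here. Precision is limited by the number of arrays, which have no read depth.

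Of 35556 probe sets, 21789 had 1 gene symbol, 1621 several and 12146 none listed. Each gene took its probe set of highest mean, which gave 19938 genes. RefSeq (GRCm38.p6) gave positions for 19850. The means of 1027 olfactory receptor genes set the background level, at their 90th percentile. Groups came from the sample titles. The group difference was fitted in R 4.3.3 by limma 3.58.1 (lmFit, then eBayes, with no covariate), two-sided, Benjamini-Hochberg adjusted over all genes and called at an adjusted p under 0.05. Psmg1 and Psmg1 minus Psmg2 were also compared by an exact permutation test over all 252 assignments. Alternatives were another quantile normalisation, median centring, a filter on genes above background, the mean of all probe sets, array weights, a robust prior with an intensity trend, a replicate block, the interquartile range as covariate, leaving out arrays, and a rewritten rank statistic after the study's method. On simulated data for Dp1Yey against control (19938 genes, 200 changed) the fit found 98% of genes simulated at 1.5-fold and 65% of genes simulated at 1.2-fold, with 4.68% false calls. The noise was drawn for each gene on its own, so deviations shared by many genes of an array were not simulated. These rates may therefore not hold for the measured arrays.

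Members, lists, motifs and alternatives were chosen with earlier results of these data known. Named by rule were Psmg1 to Psmg4, every member called, in each class the 3 members of smallest p and that of highest mean, up to 3 genes of smallest p of each other pathway list, and the 3 nearest measured genes on either side of Psmg1. Other members and other genes of the lists were named after their values were seen. Some genes of the lists are not reported here.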

Additional observations from a re-analysis of the deposited data

Results flagged for a closer look

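In 8 of the 94 sets of 5 mice (47 genes in each of 2 groups), 1 mouse lay far from the other 4 by Dixon's criterion, and chance gives about 1 in 20, or 4.7. Of the 8, 6 were control replicate 2, each time as the lowest control mouse: Psma4 at 9.33 (other control mice 9.50 to 9.51), Psma5 at 7.95 (8.34 to 8.42), Psmb1 at 9.50 (9.90 to 9.95), Psmd3 at 8.95 (9.13 to 9.16), Psmf1 at 9.18 (9.34 to 9.40) and Psmg2 at 7.91 (8.33 to 8.39), on the log2 scale. The other two were in Dp1Yey mice, Psmg2 in replicate 1 at 8.55 (8.42 to 8.43) and Psmg3 in replicate 5 at 5.94 (5.67 to 5.74). Psmg1 was not among them.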

How the results depend on the processing

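The Psmg1 call was kept under every alternative run, with log2 differences of 0.43 to 0.59, and 0.52 to 0.58 when each array was left out in turn. The 159 calls over all genes became 46 with the interquartile range as a covariate, 308 with median centring and 689 by the rank statistic, and ran from 70 (without Dp1Yey replicate 3) to 232 (without control replicate 3). The median of the members outside the interval, 0.098, was 0.021 with that covariate, 0.14 with median centring and 0.047 without control replicates 1 and 2, and 0.066 to 0.11 with each array left out. Members called higher were 2 in place of 1 by the rank statistic, which added Psme2.

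The residuals of same-numbered mice had correlations of 0.062, 0.0075, 0.040, 0.22 and -0.33. These showed no common pairing by number, but they cannot exclude one. The mice were not paired in the fit used for the calls. With the replicate block 94 genes and 2 members were called, Psmg1 (adjusted p = 0.0125) and Psme2 (0.0322). Psmg1 minus Psmg2 stayed at 0.38 with an exact paired p of 0.0625, the smallest that 5 pairs can give. Where a cause is not given by the setting itself, the cause was not tested.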
